A study of Mus musculus with 8 samples.

Results

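The genes Hes2, Hes3, Hes5 and Heyl are the members of the Hes and Hey families that lie on mouse chromosome 4. These families include Notch effectors, and the 4 genes were examined for replication timing. They were chosen by name from the gene table of the chromosome, not by their timing, and are 4 of the 1301 protein-coding genes with a timing score. Earlier results of these data were known when the choice was made. Repli-seq profiles came from JM8N4 mouse embryonic stem cells, the control, and from cells described as Klf4 enhancer deletion. The position of the deleted enhancer and the number of clones are not given in the sources used here. BrdU marked the DNA made during 2 h, propidium iodide staining separated early from late S-phase cells, and the marked DNA of each fraction was sequenced. The 8 libraries give 4 profiles, control 1, control 2, deletion 1 and deletion 2, with 2 per genotype. Cell identity was not checked here, since timing scores hold no expression of marker genes. The score is a ratio of early to late signal in steps of 5 kb, without a stated log base, so it carries no unit. Higher scores were read as earlier replication because the density of protein-coding genes was 15.1 per Mb where the mean score was above 0 and 3.2 per Mb where it was below 0. Read depth per score is unknown, since no counts are given.

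Notch is a receptor that is cut when it binds a ligand on a neighbouring cell. Its freed intracellular part joins the DNA-binding protein RBPJ at target genes, the best known of which are some members of the Hes and Hey families. Hes and Hey proteins are transcriptional repressors with a basic helix-loop-helix domain. Hes proteins end in a short motif that recruits co-repressors of the Groucho/TLE family. Hes5 is a classical Notch target that keeps neural progenitors undifferentiated, Hes3 acts with it in the developing brain, Hes2 is a less studied relative, and Heyl is a Hey family gene of vascular and muscle cells. Early replication is in general found in gene-dense parts of chromosomes. The question of the study, as far as its title gives it, concerns DNA elements that control when a region is replicated. For these genes the comparison asks whether their timing differs in cells with the Klf4 enhancer deletion. Klf4 lies on the same chromosome, 67.7 Mb from Heyl and 99.4 Mb from Hes5.

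The upstream sequence of Hes5 is shown because RBPJ-type sites close to the start are the textbook feature of Hes5 as a direct Notch target. Of the 4 genes, 1 was matched in the RefSeq promoter table of GRCm38.p6, and Hes2, Hes3 and Heyl were not. The 250 bases lie at chr4:154960673-154960922 on the plus strand, just before the start site of that table, which lies 297 bases inside the annotated span of the gene. Capitals mark matches to GTGGGAA, the RBPJ-type motif, on either strand.
Hes5 upstream: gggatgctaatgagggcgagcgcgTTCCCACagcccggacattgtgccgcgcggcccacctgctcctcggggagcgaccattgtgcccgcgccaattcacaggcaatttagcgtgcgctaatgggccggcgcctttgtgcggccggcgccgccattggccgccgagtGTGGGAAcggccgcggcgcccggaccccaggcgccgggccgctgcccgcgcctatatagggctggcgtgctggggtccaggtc
The match on the minus strand begins 226 bases before the start site and that on the plus strand 83 bases before it, with 136 bases between them. Of 27025 upstream sequences of the same length, 1 per gene, 5.41% held at least 1 match on either strand and 0.170% held 2 or more. On chromosome 4, 5 of 1632 sequences held 2 or more. The chromosome has 1328 protein-coding genes, so these upstream sequences are not limited to protein-coding genes. The letters TATATA, searched on the same sequences, begin 31 bases before the start site and were found in 5.56% of all upstream sequences. The Hes motifs CACNAG (N-box) and CACGTG (E-box), searched on both strands, had no match in this window, against 36.7% and 6.05% of all sequences. GC content was 71.6%, higher than in 93.1% of the upstream sequences, whose median was 52.0%. A match describes letters only, and no measurement of factor binding was used here.

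All 4 genes replicated early in every profile. Their control means lay between 2.65 and 3.26, where the median of all 1301 genes was 2.49. A score above 0 in every profile was found for 79.7% of all genes, so early replication is shared by most genes of the chromosome. The score of a gene is the mean of the bins that overlap it, which were 2 bins for Hes2, 2 for Hes3, 1 for Hes5 and 4 for Heyl. The genes differ in place. Hes2 (3603 bp) lies at chr4:152158867-152162469 and Hes3 (6662 bp) at chr4:152285250-152291911, 123 kb apart. Hes5 (1747 bp) lies at chr4:154960626-154962372 and Heyl (16315 bp) at chr4:123233556-123249870, all in mm10.

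Hes5 had the highest mean score of the 4, with 3.41 in control 1, 3.11 in control 2, 3.08 in deletion 1 and 3.75 in deletion 2. Its mean was 3.26 ± 0.21 in the controls and 3.42 ± 0.48 in the deletion profiles (SD, n = 2 each). Deletion 2 was the highest profile and deletion 1 the lowest, so both control profiles lay between the deletion profiles. Among all genes, 96.2% had a lower control mean. Heyl followed with 2.94 in control 1, 3.39 in control 2, 2.88 in deletion 1 and 3.50 in deletion 2. Its mean was 3.16 ± 0.32 in the controls and 3.19 ± 0.43 in the deletion profiles (SD, n = 2 each). Both number 2 profiles of Heyl were higher than both number 1 profiles, and the genotypes overlapped.

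Hes3 scored 2.55 in control 1, 2.81 in control 2, 2.49 in deletion 1 and 2.60 in deletion 2. Its mean was 2.68 ± 0.18 in the controls and 2.55 ± 0.08 in the deletion profiles (SD, n = 2 each). Control 2 was the highest profile of Hes3, and deletion 2 lay between the control profiles. Hes2 scored 2.57 in control 1, 2.73 in control 2, 2.59 in deletion 1 and 2.83 in deletion 2. Its mean was 2.65 ± 0.12 in the controls and 2.71 ± 0.17 in the deletion profiles (SD, n = 2 each). The genotypes of Hes2 were interleaved, with both number 2 profiles higher than both number 1 profiles. Of all genes, 58.6% had a lower control mean than Hes2 and 60.4% a lower one than Hes3, so these genes lay near the middle of the chromosome's genes.

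**Figure D1:**
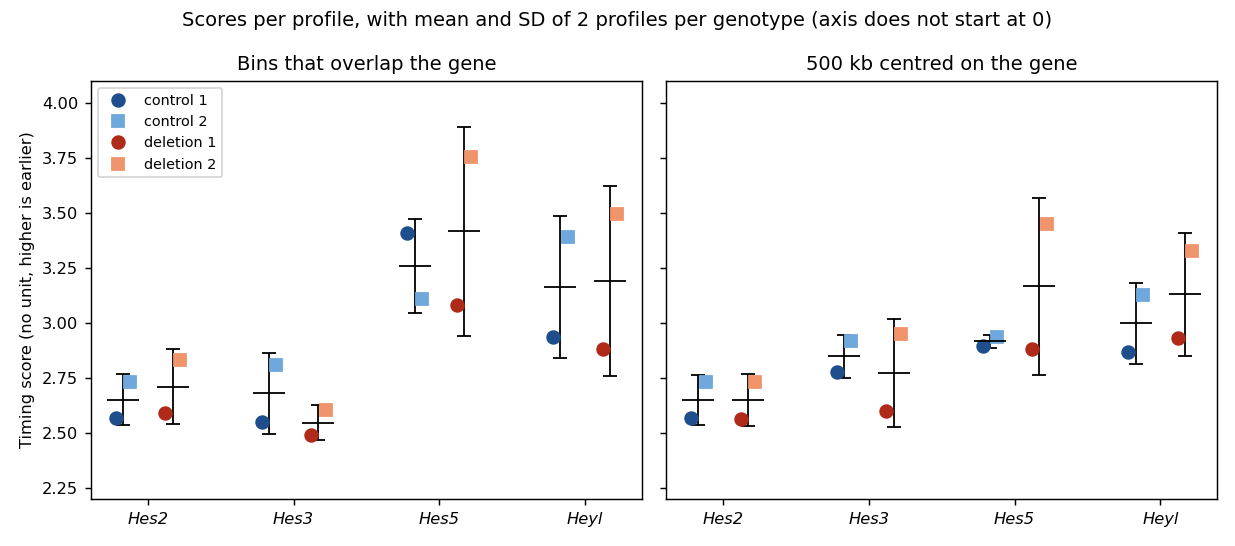
Vertical axis, timing score without unit and not starting at 0 (earlier is higher), of each gene in its own bins (left) and in the 500 kb centred on it (right), for the 4 profiles, with mean and SD of 2 profiles per genotype. The genotypes overlap for every gene in both panels, and deletion 2 of Hes5 is the highest point at 3.75.

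The order of the genes separated into an upper and a lower pair. Hes5 was above Hes2 and above Hes3 in 4 of 4 profiles, by 0.38 to 0.92 over Hes2 and by 0.30 to 1.15 over Hes3. Heyl was above Hes2 in 4 of 4 profiles, by 0.29 to 0.67, and above Hes3 by 0.38 to 0.90. Hes5 minus Heyl was 0.16 ± 0.32 (SD, n = 4 profiles of both genotypes), with Heyl the higher in control 2 by 0.28. It was 0.10 in the controls and 0.23 in the deletion profiles. Hes2 minus Hes3 was 0.07 ± 0.13 (SD, n = 4 profiles of both genotypes), with Hes3 the higher in control 2 by 0.08. That gap was -0.03 in the controls and 0.16 in the deletion profiles. These SDs mix genotype with replicate, and no test was made of the gaps. Hes2 and Hes3 share a timing domain and are not independent of each other.

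The domains of these genes had different extents. Hes2 and Hes3 sit in a single early-replicating stretch, the run of bins above 0, that was 1.09 and 1.12 Mb long in control 1 and 2 and 1.07 and 1.09 Mb in deletion 1 and 2. Its end at higher coordinates lay 380 to 410 kb from Hes3 in the 4 profiles, and its end at lower coordinates 555 to 580 kb from Hes2. Heyl lies near the lower end of a longer stretch of 4.91 to 5.03 Mb, with 525 to 570 kb to that end and 4380 to 4450 kb to the other. Hes5 lies in the last early stretch of the chromosome, which begins 1155 to 1210 kb below the gene and reaches the last measured position, 1395 kb above it. The stretch that holds both Hes2 and Hes3 averaged 1.11 ± 0.02 Mb in the controls and 1.08 ± 0.02 Mb in the deletion profiles (SD, n = 2 each). Control 1 and deletion 2 had the same length there, 1.09 Mb. In controls and deletion profiles the Hes5 stretch averaged 2.5825 and 2.585 Mb, and that of Heyl 4.9525 and 4.9675 Mb. No test was made of these lengths.

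Within their stretch, Hes2 lies on a rise and Hes3 in a dip that was slight in control 1. Around Hes2 the score climbed from a trough of 2.00 to 2.12, located 95 to 130 kb below the gene, to a local peak of 2.61 to 3.31, located 45 to 95 kb above it. The climb over the 100 kb around Hes2 was 0.08 in control 1, 0.97 in control 2, 0.58 in deletion 1 and 1.06 in deletion 2. It was steeper in both number 2 profiles than in both number 1 profiles. That peak lay within Acot7, the gene of an acyl-CoA thioesterase that separates Hes2 from Hes3. Hes3 was 30 to 80 kb past it and within 25 kb of the nearest trough. The bin at the middle of Hes3 scored 2.55 in control 1, 2.82 in control 2, 2.50 in deletion 1 and 2.63 in deletion 2. The peak scored 2.61, 3.23, 2.80 and 3.31 in the same order. A local peak or trough is a bin that is the highest or lowest within 50 kb. The peak nearest to Hes5 lay at 10, 65, -15 and -65 kb from it in control 1, control 2, deletion 1 and deletion 2. For Heyl the offsets were -90, -85, 80 and 10 kb in the same order, where negative means lower coordinates. The nearest peak thus changed side between profiles for both genes. In the 500 kb around Heyl the bins of the 4 profiles scored between 2.35 and 3.56.

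**Figure D2:**
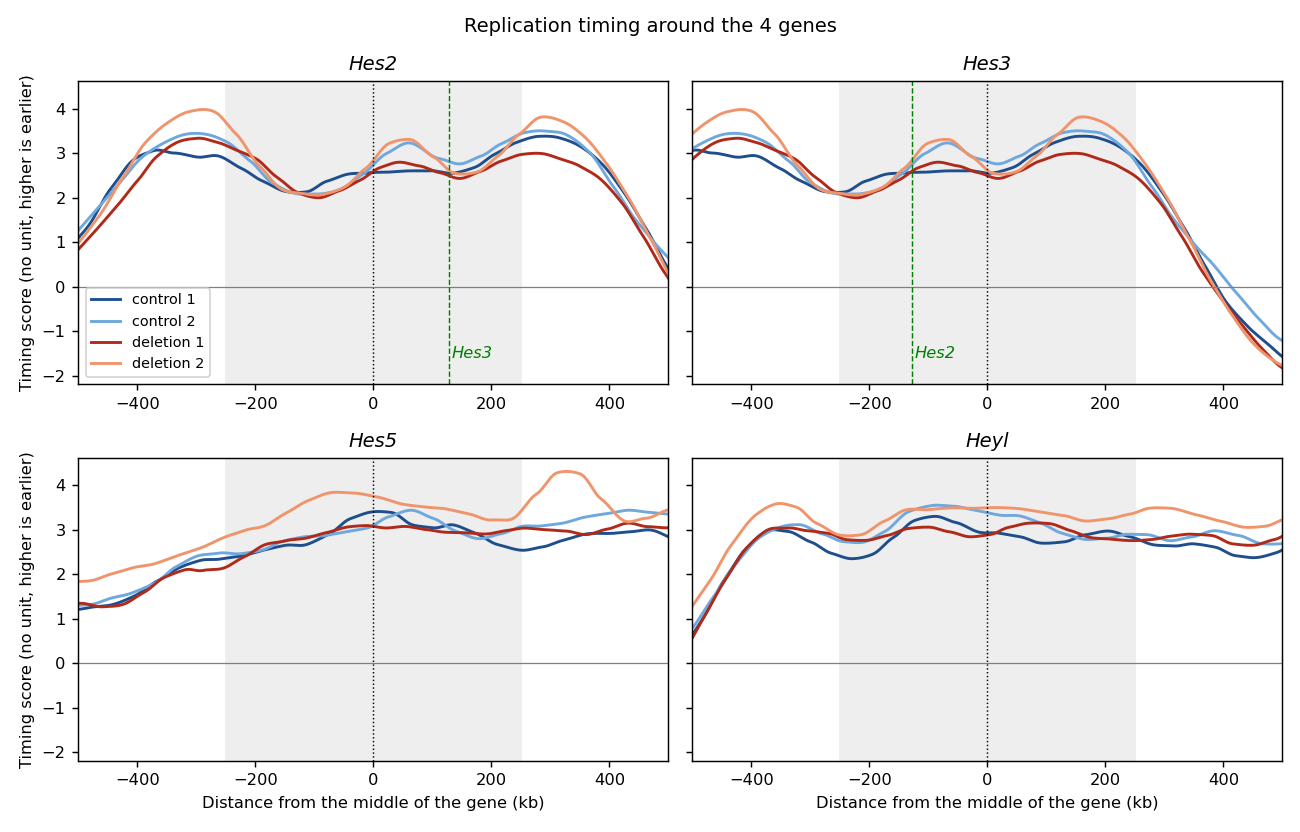
Timing score (vertical axis, no unit) against distance from the middle of each gene in kb (horizontal axis) for the 4 profiles; grey marks the surrounding 500 kb, the dotted line the gene and the green dashed line the other gene of the Hes2 and Hes3 pair. Hes2 lies on a rise and Hes3 in a dip of the same stretch, and deletion 2 is the highest profile over Hes5.

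The 500 kb around each gene was early as well. Over the window of Hes5 it was 2.90 and 2.94 in control 1 and 2, 2.88 in deletion 1 and 3.45 in deletion 2. Control 1, control 2 and deletion 1 thus lay within 0.06 of each other, and deletion 2 was 0.51 above the highest of them. The window of Heyl scored 2.87, 3.13, 2.93 and 3.33 in control 1, control 2, deletion 1 and deletion 2. That of Hes3 scored 2.78, 2.92, 2.60 and 2.95 in the same order, and that of Hes2 2.57, 2.73, 2.56 and 2.73. In the Hes2 window the profiles of each number were nearly equal between genotypes. The windows of Hes2 and Hes3 share 372 kb. Bin by bin, both deletion profiles exceeded both controls in 29 of the 101 bins around Hes5, 25 around Heyl, 13 around Hes2 and 0 around Hes3, where 16.0% of all positions did so. They lay below both controls in 28 bins around Hes2 and 28 around Hes3, and in 0 around Hes5 and Heyl, against 5.86% of all positions. Bins in the 372 kb that the Hes2 and Hes3 windows share count for both genes, so their counts are not separate observations. These shares of 28.7%, 24.8%, 12.9% and 0% above, and of 27.7% below around Hes2 and Hes3, come from neighbouring bins, which are not independent, so no test was made of them. Every bin of the 4 windows, 101 in each, was above 0 in every profile.

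No difference between genotypes passed the test for any of these genes. In the fit of gene scores over all genes, the difference of deletion minus control was 0.06 for Hes2 (SE 0.34), -0.13 for Hes3 (SE 0.34), 0.16 for Hes5 (SE 0.35) and 0.03 for Heyl (SE 0.35), with a limma adjusted p of 0.999 for each. The 95% intervals of these differences ran from -0.63 to 0.75 for Hes2, from -0.82 to 0.56 for Hes3, from -0.56 to 0.87 for Hes5 and from -0.69 to 0.74 for Heyl. A difference of up to these bounds is therefore not excluded by this fit, which does not use the replicate number. Single profiles set the sign of the gene difference: without control 1 it was -0.02 for Hes2 and -0.20 for Heyl, and without deletion 2 it was -0.06 for Hes2, -0.18 for Hes5 and -0.28 for Heyl. For Hes3 it ranged from -0.26 without control 1 to -0.0044 without control 2. By this rule 0 of the 4 genes and 0% of all 1301 genes were called, with 17 genes of the chromosome and 0 of the 4 at an unadjusted p under 0.05. Over the 500 kb windows the differences were -0.0022 for Hes2, -0.07 for Hes3, 0.25 for Hes5 and 0.13 for Heyl (SE 0.32 each), with limma adjusted p of 0.999, 0.988, 0.988 and 0.988. Again 0 of 4 and 0% of the 1301 windows were called, with 11 windows at an unadjusted p under 0.05. Without deletion 2 the window difference was -0.04 for Hes5 and -0.06 for Heyl, without deletion 1 it was 0.08 for Hes2 and 0.10 for Hes3, and without control 2 it was 0.08 for Hes2. Both deletion profiles were above both controls for 0 of the 4 gene scores and 15.1% of all genes, and below them for 0 of the 4 and 6.53% of all genes. The corresponding shares of windows were 9.99% and 3.46%, with 0 of the 4 windows in either.

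The differences of these genes were also set against the shift of all genes. The median difference of all genes was 0.14, a shift that median centring reduced to 0.03 and quantile normalization to -0.03. After subtraction of that median the difference was -0.08 for Hes2, -0.27 for Hes3, 0.02 for Hes5 and -0.11 for Heyl, so 3 of the 4 lay below the median, which by definition has as many genes below it as above it. Over the 500 kb windows, whose median difference was 0.12, 2 of the 4 lay below it, with -0.13 for Hes2, -0.20 for Hes3, 0.13 for Hes5 and 0.0089 for Heyl. Median centring takes the same amount off the difference of every gene, so a sign it turns restates that shift. After quantile normalization the differences of all 4 genes were below 0, so the sign of Hes2, Hes5 and Heyl depends on the scaling. That of Hes3 was below 0 as deposited (-0.13), after median centring (-0.24) and after quantile normalization (-0.30), but it was -0.0044 as deposited without control 2.

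Within the replicate numbers the genes did not move alike. Between the number 1 profiles the difference was 0.02 for Hes2, -0.06 for Hes3, -0.33 for Hes5 and -0.05 for Heyl. Between the number 2 profiles it was 0.10, -0.21, 0.64 and 0.11 in the same order. Hes3 was thus lower and Hes2 higher in the deletion profile of both numbers, and Hes5 and Heyl changed sign between them. Among all genes 14.4% were lower and 43.7% higher within both numbers. The differences of Hes5 within the numbers were 0.97 apart, a wider gap than in 97.1% of the genes, whose median gap was 0.27. The gap between numbers within a genotype exceeded the mean genotype difference for Hes2, Hes5 and Heyl, and for Hes3 in the controls. Number 2 was above number 1 by 0.16 and 0.24 for Hes2 in control and deletion cells, by 0.26 and 0.11 for Hes3 and by 0.46 and 0.61 for Heyl. For Hes5 that gap was -0.30 in control and 0.67 in deletion cells. Number 2 was above number 1 in both genotypes for 72.6% of all genes. What the numbers stand for is not stated in the labels.

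**Figure D3:**
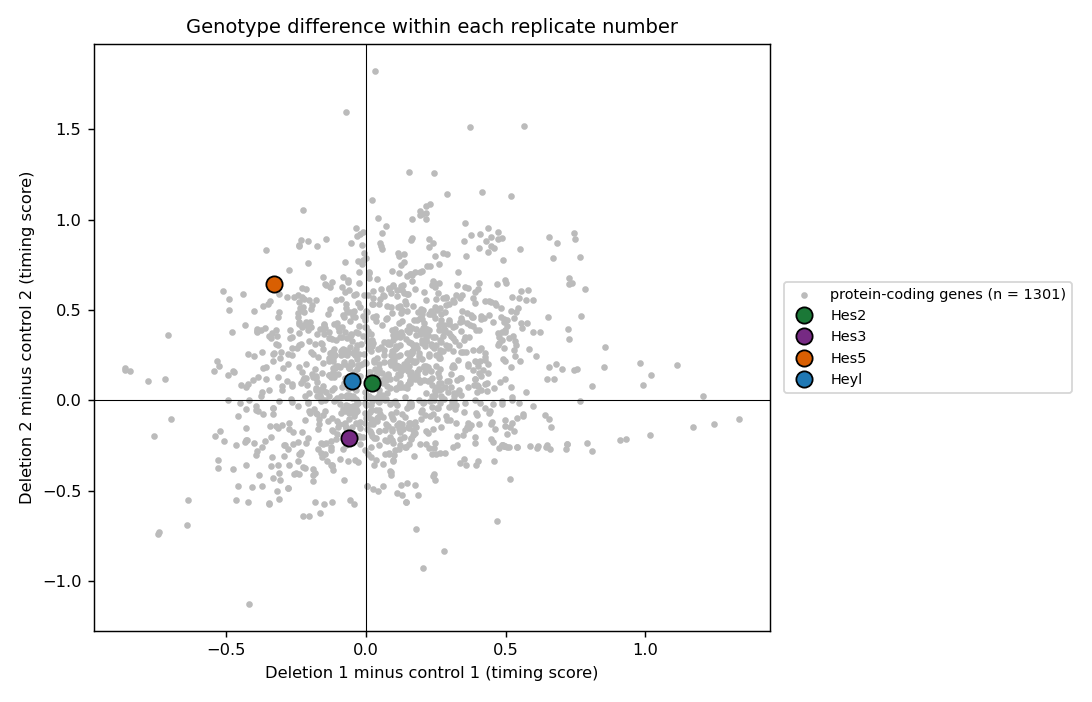
Deletion 1 minus control 1 (horizontal axis) against deletion 2 minus control 2 (vertical axis), in timing score, for 1301 protein-coding genes (grey) and the 4 genes (colours). Hes3 lies below 0 on both axes at -0.06 and -0.21, and Hes5 lies at -0.33 and 0.64, away from the other 3.

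Each gene was also compared with the rest of its own 500 kb, which cancels a shift of a whole profile. Hes5 stood above its surroundings in every profile, by 0.52 and 0.17 in the controls, and 0.20 and 0.31 in the deletion profiles. Hes3 stood below them in every profile, by a difference of -0.23 and -0.11 in the controls, and -0.11 and -0.35 in the deletion profiles. Heyl was above in 3 of 4 profiles, with 0.07 and 0.27 in the controls, and -0.05 and 0.18 in the deletion profiles. Hes2 was level with its surroundings, at -0.001 and 0.0019 in the controls, and 0.03 and 0.10 in the deletion profiles. Hes2 was the member whose genotypes did not overlap here (exact two-sided permutation p = 0.333, the smallest that 2 profiles against 2 can give). Both deletion profiles were above both controls in 16.6% of the 1289 genes in this fit, and below them in 16.4%. The genotype difference of this quantity was 0.06 for Hes2 (SE 0.15), -0.06 for Hes3 (SE 0.16), -0.09 for Hes5 (SE 0.17) and -0.11 for Heyl (SE 0.16). Leaving out 1 profile turned the sign for 3 of the 4, to 0.06 for Hes3 without deletion 2 and 0.0008 without control 2, to 0.08 for Hes5 without control 1 and to 0.0057 for Heyl without deletion 1. None of the 4 passed the test (limma, adjusted p of 0.965 to 0.990), and 0% of the 1289 genes did, with 37 at an unadjusted p under 0.05.

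The neighbours of these genes were early as well. In the 500 kb around Hes2 all 18 other protein-coding genes had a score above 0 in every profile. So did all 13 around Hes3, 10 around Hes5 and 12 around Heyl, against 79.7% of all genes. The 18 include Hes3, the 13 include Hes2, and both sets hold other shared genes such as Acot7 and Kcnab2. Control means ranged from 2.11 for Tas1r1, a taste receptor gene, to 3.39 for Kcnab2, a potassium channel subunit gene, around Hes2. Around Hes3 they ranged from 2.12 for Nol9, a gene of ribosomal RNA processing, to the same Kcnab2. Espn (espin, an actin-bundling protein), 6.5 kb from Hes2, scored 2.55 and 2.48 in the controls, and 2.40 and 2.54 in the deletion profiles. Acot7, the nearest gene on the other side of Hes2, scored 2.60 and 3.08 in the controls, and 2.71 and 3.16 in the deletion profiles. Icmt, which encodes a methyltransferase of prenylated proteins and lies 5.3 kb from Hes3, scored 2.57 and 2.77 in the controls, and 2.44 and 2.54 in the deletion profiles. Both deletion profiles of Icmt lay below both controls, as they did for Nol9 and for 6.53% of all genes. The difference was -0.18 for Icmt and -0.06 for Nol9, and neither passed the test (limma, adjusted p = 0.999 each). Hes3 itself, 5.3 kb from Icmt, overlapped between genotypes.

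Around Hes5 the differences of all 10 neighbours were above 0, from 0.03 to 0.49, with a median of 0.26, where 70.6% of all genes had a difference above 0. Around Heyl 7 of 12 neighbours were above 0 (median 0.20), around Hes2 7 of 18 (median -0.07) and around Hes3 2 of 13 (median -0.10). Neighbours share stretches of the profile and are not independent of each other, and the mean difference of the Hes5 window rested on deletion 2, at 0.25 with it and -0.04 without it. Pank4, a pantothenate kinase family gene 1.8 kb away, scored 3.41 and 3.19 in the controls, and 3.06 and 3.72 in the deletion profiles. The score of Pank4 includes the 1 bin that gives the score of Hes5, so their closeness in each profile is partly built in. Tnfrsf14, a TNF receptor family gene, scored 3.25 and 2.98 in the controls, and 3.07 and 3.83 in the deletion profiles. Ttc34, the neighbour with the lowest control mean, scored 2.70 and 2.85 in the controls, and 2.84 and 3.66 in the deletion profiles. Deletion 2 was the highest profile for each of these neighbours, as for Hes5. Around Heyl, Nt5c1a (a nucleotidase) scored 3.02 and 3.46 in the controls, and 2.85 and 3.49 in the deletion profiles. Pabpc4, a poly(A)-binding protein gene, scored 2.86 and 3.32 in the controls, and 3.10 and 3.48 in the deletion profiles. Ppie, a cyclophilin gene with the highest control mean there, differed by -0.13, and Mycl, a Myc family gene with the lowest, by 0.27.

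Genes elsewhere on the chromosome had closely similar scores. Among 1152 genes over 2 Mb from all 4, those with the smallest root mean square difference over the 4 profiles were Acer2 (0.03) and Gja4 (0.05) for Hes2 and Col8a2 (0.05) and Wdtc1 (0.07) for Hes3. For Heyl they were Dnajc16 (0.03) and Casp9 (0.07), and for Hes5 Nfyc (0.12) and Nudt2 (0.13). Within a root mean square difference of 0.1 there were 13 genes for Hes2, 7 for Hes3, 7 for Heyl and 0 for Hes5. With 4 profiles such likeness says only that the scores are close.

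Other genes of the Notch pathway on the chromosome were early, apart from Tle1. Of 7 listed genes 6 scored above 0 in every profile, as did 79.7% of all genes. By limma, 0 of the 7 rose and 0 fell, leaving all 7 short of the threshold, with 0 at an unadjusted p under 0.05. On the side of the signal, Mib2, a ubiquitin ligase for Notch ligands, scored 2.07 and 2.33 in the controls, and 2.09 and 2.15 in the deletion profiles. Rer1, which retains parts of the Notch-cutting protease in the secretory pathway, scored 3.08 and 3.14 in the controls, and 2.95 and 3.48 in the deletion profiles. Rer1 lies within the 500 kb around Hes5. Dvl1, a Wnt pathway protein that is also reported to dampen Notch signalling, scored 2.69 and 2.57 in the controls, and 2.84 and 3.06 in the deletion profiles. Both deletion profiles of Dvl1 lay above both controls, as for 15.1% of all genes, and its difference of 0.32 (SE 0.34) did not pass the test (limma, adjusted p = 0.999).

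On the side of repression, Spen, a co-repressor bound to RBPJ, scored 2.86 and 2.88 in the controls, and 2.65 and 2.86 in the deletion profiles. The histone deacetylase gene Hdac1 scored 2.21 and 2.53 in the controls, and 2.22 and 2.36 in the deletion profiles, and the histone demethylase gene Kdm1a 3.05 and 3.35 in the controls, and 3.0 and 3.31 in the deletion profiles. Tle1, a Groucho family co-repressor recruited by Hes proteins, replicated late, at -1.62 and -1.58 in the controls, and -1.88 and -1.23 in the deletion profiles. The median difference of the 7 genes was -0.05, against 0.14 over all genes and 0.04 over the 4 Hes and Hey genes. It was -0.21 after quantile normalization, 0.08 without control 2 and 0.11 without deletion 1.

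Other genes of helix-loop-helix proteins were early too. All 4 had scores above 0 in every profile, as did 79.7% of all genes. Their control median was 2.01, against 2.92 for the Hes and Hey genes and 2.49 for all genes. Id3, an inhibitor of helix-loop-helix factors, scored 2.63 and 2.68 in the controls, and 2.51 and 2.30 in the deletion profiles. Mycl scored 2.38 and 2.74 in the controls, and 2.79 and 2.87 in the deletion profiles, and lies within the 500 kb around Heyl. Both deletion profiles were below both controls for Id3 and above them for Mycl, as for 6.53% and 15.1% of all genes. Tal1, a blood cell factor, scored 1.49 and 1.45 in the controls, and 1.99 and 1.26 in the deletion profiles, and its relative Tal2 0.96 and 1.41 in the controls, and 1.22 and 2.16 in the deletion profiles. By limma 0 of the 4 rose and 0 fell, leaving all 4 short of the threshold, with 0 at an unadjusted p under 0.05. Their median difference was 0.22, against 0.11 after median centring and 0.04 after quantile normalization. It was 0.06 without deletion 1, 0.13 without deletion 2, 0.14 without control 1 and 0.30 without control 2.

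**Figure D4:**
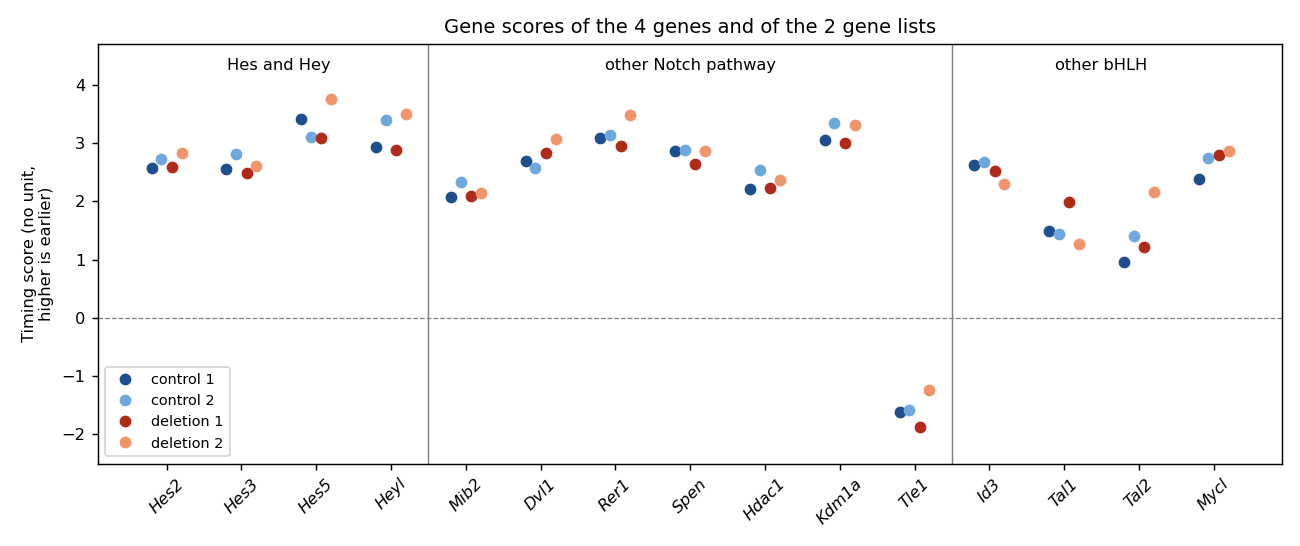
Points give the 4 profiles (vertical axis, timing score without unit) for the 4 Hes and Hey genes, 7 other Notch pathway genes and 4 other helix-loop-helix genes. Tle1 is the gene below 0, between -1.88 and -1.23, and Hes5 and Heyl are among the highest.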

How the data were processed

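Replication timing was measured in 8 libraries that form 4 profiles. The deposited values are timing scores per 5 kb position of chromosome 4, scaled by the authors to a common interquartile range (4.60 in each profile) per the file headers and name. Bowtie2, SAMtools, bedtools and mm10 are named in the submitters' processing notes. Smoothing and the log base are not given in the sources used here. Of 31301 positions, 30659 had a score in every profile, and a position was taken as the start of its bin. Genes came from a RefSeq table of GRCm38.p6, in which 1301 of 1328 protein-coding genes had a score.

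Gene scores, means of the 500 kb centred on each gene, and gene minus the rest of that window (1289 genes) were each compared over all genes with limma 3.58.1 in R 4.3.3, as a two-sided test at 0.05 after Benjamini-Hochberg adjustment. SEs and intervals use limma's moderated spread. The labels do not say whether replicates were separate cultures or clones, so the spread may be technical.

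The members and lists were chosen with earlier results of these data known. Besides them, the nearest neighbours, the neighbours with the highest and lowest control mean within 250 kb and the 2 most alike genes were named. Alternatives were the replicate number as a block, median centring, quantile normalization, bin ends, limma's trend and robust options, other bins or windows, and leaving out each profile. The block for the gene minus its surroundings was added after seeing the data.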

Additional observations from a re-analysis of the deposited data

How the results depend on the processing

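None of the 4 genes passed the test under any alternative run, with limma adjusted p between 0.422 and 1, but their signs were not stable. The gene score difference was -0.0514 for Hes2 and -0.0829 for Heyl after median centring, with or without the replicate block, which restates the shift taken off every gene, and -0.103 for Hes2, -0.0474 for Hes5 and -0.149 for Heyl after quantile normalization. The window difference was 0.0509 for Hes2 in windows of 100 kb and -0.0327 for Heyl after quantile normalization. The list medians were -0.207 for Notch genes after quantile normalization, and for helix-loop-helix genes 0.107 after median centring with or without the block and 0.0415 after quantile normalization.

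With 1 profile left out, gene score differences ranged from -0.0609 to 0.179 for Hes2, -0.263 to -0.0044 for Hes3, -0.180 to 0.493 for Hes5 and -0.279 to 0.334 for Heyl. Window differences ranged from -0.0860 to 0.0816, -0.249 to 0.0997, -0.0352 to 0.533 and -0.0647 to 0.329 in the same order. Gene minus surrounding ranged from 0.0257 to 0.0994, -0.180 to 0.0607, -0.266 to 0.0791 and -0.223 to 0.0057. List medians ranged from -0.156 to 0.107 for Notch and from 0.0562 to 0.297 for helix-loop-helix genes. Without deletion replicate 1, 4 genes and 13 windows of the chromosome were called, none of them one of the 4, against 0 without each other profile. Such fits mix genotype with replicate number.

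With the replicate number as a block, 0 genes and 0 windows were called, with 165 genes and 220 windows at an unadjusted p under 0.05. The differences stay 0.06, -0.13, 0.16 and 0.03 by construction, since each number holds 1 profile per genotype, and only their SE and p can move. With the block the SE of the gene score difference was 0.19 for Hes2, Hes3 and Heyl and 0.235 for Hes5. The limma adjusted p was 0.789 to 0.968. The deviations of same-numbered profiles from their group means correlated at 0.637, but 2 pairs of numbers do not establish pairing. The cause of these changes was not tested. Depth is unknown, which limits what the scores can resolve.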
